A study of Mus musculus with 72 samples.

Results

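Cholesterol synthesis, sterol transport and their control by the transcription factor SREBP2 were followed through 26 genes. The genes were chosen by what their products do and not by a measured value, although earlier results of these data were known. They are 19 enzymes of cholesterol synthesis, 4 genes of SREBP control and 3 genes of sterol transport. The enzymes split into 8 of the mevalonate arm, which builds isoprenoid units and joins them to farnesyl and geranylgeranyl diphosphate, and 11 of the sterol arm, which runs from squalene synthesis to cholesterol. All 26 were found among the 25124 genes of the RNA table, and all were among the 10789 genes tested. In the table of accessible chromatin, 63 of 51983 peaks lay within 50 kb of the start site of the member they are named for, and 62 of them were tested. These peaks belong to 23 members, since none is named for Mvd, Nsdhl or Hsd17b7 within that distance.

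Cells make cholesterol from acetyl-CoA and keep its level steady by feedback. When sterols are scarce in the endoplasmic reticulum, the escort protein SCAP carries SREBP2 to the Golgi, where proteases release its active part, which enters the nucleus and switches on the genes of synthesis and uptake. When sterols are plentiful, INSIG proteins hold SCAP and SREBP2 in the endoplasmic reticulum. Macrophages take up much cholesterol from lipoproteins and dying cells, and NPC1 and NPC2 move it out of the lysosome.

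The cells were RAW264.7, a macrophage-like line of BALB/c mouse origin that the labels list as monocytes. A lentivirus had brought in a hairpin that targets GFP (shGFP, the control), the corepressor NCOR (shNCOR) or the related corepressor SMRT (shSMRT). All 3 groups therefore carried a lentiviral hairpin, received no further treatment and grew in DMEM with 10% FBS. Both corepressors carry the deacetylase HDAC3 to DNA-bound factors such as nuclear receptors, and the design asks what each of them controls. Each group had 3 RNA-seq and 3 ATAC-seq libraries, so 18 of the 72 samples of the series were used. ATAC-seq reads open chromatin by the cuts of a transposase. The labels name neither the hairpin sequences nor how many lines were made with each hairpin, and their ATAC-seq protocol describes wild-type cells in triplicate wells where the titles name the hairpins. The titles were followed. Whether replicates were grown as separate cultures is not stated, so a p-value here reflects only library-to-library spread, which could be technical.

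The RNA libraries held 39.1 to 49.1 M reads (M, mega), and each member had 289 to 20263 reads per library, with a median of 3658. The ATAC libraries held 6.06 to 10.84 M reads. Ncor1, which encodes NCOR, checked the labels: it stood at 18.4, 20.2 and 18.7 RPKM in shGFP, 3.61, 4.20 and 4.30 in shNCOR, and 18.9, 20.2 and 20.2 in shSMRT. RPKM is reads per kilobase of exon per M reads. Every shNCOR library was below every other library, and the log2 fold change of Ncor1 against shGFP was -2.00 ± 0.06 (SE, limma adjusted p = 8.89e-10). Of 12 macrophage markers, Mertk did not exceed 0.041 RPKM in any library, and the other 11 were tested. Their summed level was 7999.6 to 8229 RPKM in shGFP, 9205 to 9539.7 in shNCOR and 11038 to 11632 in shSMRT. All 5 markers of neutrophils and mast cells stayed below 1 RPKM in every library, as did 3 of 4 of lymphocytes and 4 of 5 of fibroblasts and epithelium. In bulk RNA, fewer cells of a type and less RNA per cell cannot be told apart.

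The promoter sequences were read from RefSeq (build GRCm38.p6, the assembly called mm10), as the 250 bases before each start site. Of the 26 members 21 had an entry. The entry of Pmvk starts 453 bp from the start of the transcript counted in the RNA, so its window lies inside the gene. The windows of Ebp and Insig2 lie under no listed ATAC peak. All 3 are counted in the shares below. The core of the sterol regulatory element of the classical SREBP2 targets was searched as TCACNCCAC, an E-box-like SREBP site as TCACNTGA, the box of the SREBP partner NF-Y as CCAAT and the box of its partner Sp1 as GGGCGG, each on both strands. Matches of different motifs may overlap and were counted separately. CCAAT was in 17 of 21 members (81.0%), against 33.8% of all 32851 promoters of the table and 37.1% of the 8440 promoters that matched a tested gene. GGGCGG was also in 17 of 21 members (81.0%), against 32.7% of all promoters and 61.6% of those of tested genes. The sterol regulatory element core was in 1 of 21 members (4.76%), that of Hmgcs1, against 1.05% of all promoters. TCACNTGA was in 0 of 21, against 3.45% of all promoters. A match describes these letters only, and a promoter without a match says only that the letters are not in these 250 bases. The 5 promoters shown belong to members on which the results turn: Hmgcs1, the one synthesis enzyme with the core and a raised transcript in shNCOR, Lss and Msmo1, whose promoter peaks fell in shSMRT, Dhcr7, the member lowered most in shSMRT, and Insig1, the feedback gene. Each is printed 5′ to 3′ on the strand of its gene, with the sterol regulatory element core and CCAAT in capitals. CCAAT reads ATTGG where it lies on the other strand. Hmgcs1 is at chr13:119690101-119690350 (+), Lss at chr10:76531355-76531604 (+), Msmo1 at chr8:64733579-64733828 (-), Dhcr7 at chr7:143822917-143823166 (+) and Insig1 at chr5:28071162-28071411 (+).
Hmgcs1: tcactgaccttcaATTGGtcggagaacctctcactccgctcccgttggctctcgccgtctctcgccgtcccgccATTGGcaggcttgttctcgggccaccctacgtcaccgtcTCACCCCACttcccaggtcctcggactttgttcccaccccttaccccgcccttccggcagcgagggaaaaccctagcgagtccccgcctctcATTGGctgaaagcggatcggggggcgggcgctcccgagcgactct
Lss: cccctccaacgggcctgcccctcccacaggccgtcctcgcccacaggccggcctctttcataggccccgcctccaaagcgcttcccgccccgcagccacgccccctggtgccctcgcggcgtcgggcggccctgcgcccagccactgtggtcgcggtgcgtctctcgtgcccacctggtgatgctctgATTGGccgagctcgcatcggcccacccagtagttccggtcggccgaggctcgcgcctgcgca
Msmo1: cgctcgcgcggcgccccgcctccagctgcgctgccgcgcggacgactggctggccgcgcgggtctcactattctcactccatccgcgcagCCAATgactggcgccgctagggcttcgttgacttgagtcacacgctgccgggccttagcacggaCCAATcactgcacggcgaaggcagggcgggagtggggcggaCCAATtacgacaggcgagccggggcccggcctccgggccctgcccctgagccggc
Dhcr7: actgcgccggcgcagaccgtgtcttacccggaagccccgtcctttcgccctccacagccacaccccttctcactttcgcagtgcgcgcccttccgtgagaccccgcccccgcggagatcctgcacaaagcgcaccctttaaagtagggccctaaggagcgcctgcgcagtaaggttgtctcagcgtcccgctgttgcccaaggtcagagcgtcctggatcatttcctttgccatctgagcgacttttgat
Insig1: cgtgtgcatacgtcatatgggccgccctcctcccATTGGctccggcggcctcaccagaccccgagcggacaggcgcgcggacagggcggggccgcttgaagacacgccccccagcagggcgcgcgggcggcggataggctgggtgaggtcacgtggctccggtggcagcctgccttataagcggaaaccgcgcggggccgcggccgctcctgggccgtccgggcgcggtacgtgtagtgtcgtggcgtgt
In Hmgcs1 the core TCACCCCAC lies 137 to 129 bases before the start site, and CCAAT occurs 3 times. Msmo1 also has CCAAT 3 times, Lss and Insig1 have it 1 time each, and the Dhcr7 window has none. All 250 bases of each of these 5 windows lie inside a listed ATAC peak, although the peak over the Dhcr7 start is named for the neighbouring gene Nadsyn1.

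In shGFP cells the members spanned a wide range of transcript levels per length. Fdps, which makes farnesyl diphosphate, was the highest at 379.9 RPKM, above 98.3% of the tested genes. Ggps1, which makes geranylgeranyl diphosphate for the tails of small GTPases, was the lowest at 4.28 RPKM, above 21.4% of them. Srebf2, the gene of SREBP2, stood at 80.4 RPKM, and its inhibitors Insig1 and Insig2 stood at 45.2 and 7.49 RPKM.

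With SMRT knocked down, cholesterol synthesis transcripts fell along nearly the whole pathway. Against shGFP, 15 of the 19 enzymes fell, none rose, and 4 were not called. Of all 26 members, 18 fell and 2 rose, where 31.4% of the tested genes fell and 24.4% rose. The median log2 fold change was -0.23 over the members and -0.022 over all tested genes. The steepest falls were in Dhcr7 and Fdps, which kept 49.7% and 57.2% of their shGFP means, whereas Npc2 rose to 134% of its mean. Every shSMRT library was below every shGFP library in 19 members and above in 2, where 35.2% of the tested genes were separated downward and 27.9% upward.

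With NCOR knocked down, fewer members were called, and in both directions. Against the same shGFP libraries, 9 of 26 members fell and 3 rose, where 20.0% of the tested genes fell and 17.6% rose. Among the 19 enzymes 7 fell, 2 rose and 10 were not called. The median log2 fold change was -0.058 over the members and 0.002 over all tested genes. The members that rose were Hmgcs1, Tm7sf2 and Npc1. Fdps, Lss, Dhcr7 and Insig1 were called lower under 18 of 18 alternative analyses of the RNA, leaving aside a test against a fold of 1.2. The calls of Acat2, Mvk, Fdft1, Hsd17b7 and Srebf2 ended under at least 1 of them. The test against a fold of 1.2 called 0 members lower and 0 higher, where it called 432 and 270 of the tested genes. The count of members that fell was 5 without shGFP replicate 2, shGFP replicate 3, shNCOR replicate 2 or shNCOR replicate 3, and 3 still rose each time. Of the 10789 tested genes, 1965, 1819, 1936 and 1875 then fell, and 1674, 1545, 1604 and 1610 rose. Groups did not overlap in 11 members with shNCOR lower and 4 with shNCOR higher, where 24.9% and 23.1% of the tested genes were so separated.

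The difference between the knockdowns was tested directly. In shSMRT against shNCOR, 17 of 26 members were lower and 1 was higher, where 29.0% and 22.8% of the tested genes were. Of the 19 enzymes, 14 were lower and 0 were higher. The 1 higher member was Npc2. In 16 members the group means ran in the order shGFP, shNCOR, shSMRT from high to low. The median enzyme lay 0.050, 0.060 and 0.095 below the shGFP mean on the log2 scale in shNCOR replicates 1, 2 and 3, and 0.26, 0.27 and 0.28 below it in the shSMRT replicates. The comparisons against shGFP share their control libraries and are not independent of each other.

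**Figure D1:**
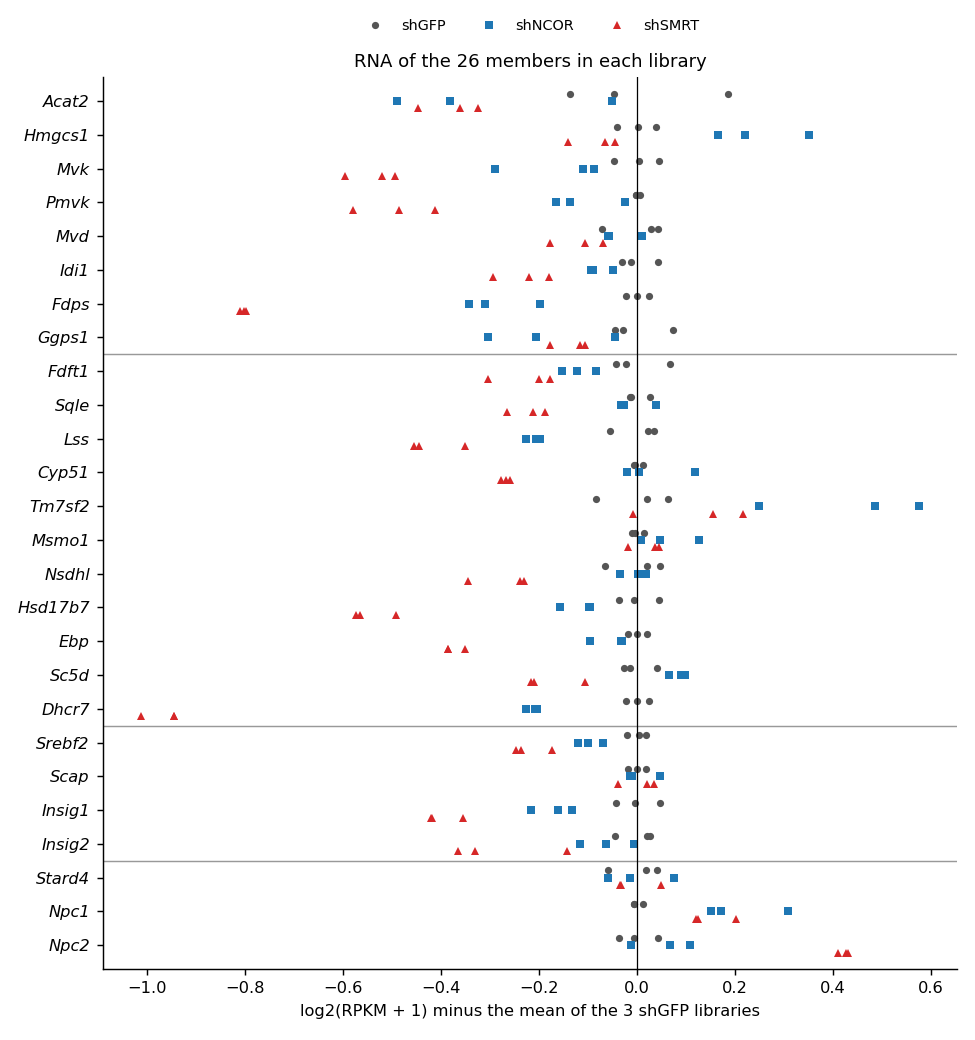
Transcript level of each member in each RNA-seq library as log2(RPKM + 1) minus the mean of the 3 shGFP libraries, with 1 point per library and the members ordered by role. The shSMRT points of Dhcr7 and Fdps lie farthest to the left, and those of Npc2 lie to the right of every other library.

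In the mevalonate arm, 6 of 8 enzymes fell in shSMRT and 3 fell in shNCOR, with 1 higher in shNCOR. Among all tested genes 31.4% fell in shSMRT, and 20.0% fell and 17.6% rose in shNCOR. Fdps stood at 379.6, 374 and 386 RPKM in shGFP, at 331, 299 and 306 RPKM in shNCOR and at 216, 218 and 217 RPKM in shSMRT. Every shNCOR library was below every shGFP library, and every shSMRT library was below every shNCOR library. Limma gave Fdps a log2 fold change of -0.80 ± 0.035 (SE) in shSMRT (called lower, adjusted p = 1.66e-08) and of -0.28 ± 0.035 in shNCOR (called lower, adjusted p = 8.4e-05). Fdps lies at chr3:89093588-89101967 (mm10, minus strand) and supplies farnesyl diphosphate both to squalene and to protein prenylation.

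Mvk and Pmvk phosphorylate mevalonate in turn. The RPKM of Mvk was 24.1, 23.2 and 24.8 in shGFP, 22.1, 19.4 and 22.5 in shNCOR and 16.7, 15.5 and 16.4 in the shSMRT libraries. In shGFP Pmvk had 35.4, 35.3 and 35.3 RPKM, in shNCOR 34.7, 31.4 and 32.0 and in shSMRT 26.3, 23.3 and 24.9. The shSMRT values of both genes lay below all others. Against shGFP, Mvk differed by -0.54 ± 0.054 (log2, SE) in shSMRT, limma adjusted p = 9.34e-06, called lower, and by -0.16 ± 0.054 in shNCOR, adjusted p = 0.0346, called lower. Pmvk was called lower in shSMRT, at a log2 fold change of -0.49 ± 0.047 (SE, limma adjusted p = 6.15e-06), and not called in shNCOR, at -0.11 ± 0.047 (adjusted p = 0.0898). The call of Mvk in shNCOR ended under 5 of 18 alternatives, with an adjusted p of up to 0.113.

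Hmgcs1, which condenses acetyl-CoA and acetoacetyl-CoA to HMG-CoA at the entry of the pathway, moved the other way in shNCOR. For Hmgcs1 the libraries gave 43.3, 42.2 and 40.9 RPKM in shGFP, 53.9, 49.2 and 47.4 in shNCOR and 40.8, 40.2 and 38.1 in the shSMRT libraries. All 3 shNCOR libraries were above the other 6. Limma gave Hmgcs1 a log2 fold change of -0.084 ± 0.047 (SE) in shSMRT (not called, adjusted p = 0.148) and of 0.25 ± 0.047 in shNCOR (called higher, adjusted p = 0.00178). The 95% confidence interval of its difference in shSMRT ran from -0.19 to 0.02, and the shSMRT and shGFP libraries did not overlap. Between the knockdowns Hmgcs1 was lower in shSMRT by a log2 fold change of -0.33 (limma adjusted p = 0.000141).

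Acat2, the cytosolic thiolase that makes acetoacetyl-CoA, spread widely between replicates. Acat2 stood at 53.5, 45.4 and 42.5 RPKM in shGFP, at 45.2, 33.1 and 35.8 RPKM in shNCOR and at 37.3, 34.1 and 36.3 RPKM in shSMRT. The first shNCOR library lay within the shGFP range and the other 2 below it. Against shGFP, Acat2 differed by -0.38 ± 0.10 (log2, SE) in shSMRT, limma adjusted p = 0.00969, called lower, and by -0.31 ± 0.10 in shNCOR, adjusted p = 0.0384, called lower. The call in shNCOR ended under 8 of 18 alternatives, in which the adjusted p reached 0.144.

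Idi1, which isomerises isopentenyl diphosphate, and Mvd, which makes it by decarboxylation, had smaller falls. The RPKM of Idi1 was 28.0, 26.6 and 26.9 in shGFP, 26.2, 25.4 and 25.4 in shNCOR and 23.1, 22.0 and 23.8 in the shSMRT libraries. Its shSMRT libraries lay below the other 6. Idi1 was called lower in shSMRT, at a log2 fold change of -0.23 ± 0.037 (SE, limma adjusted p = 0.000309), and not called in shNCOR, at -0.078 ± 0.037 (adjusted p = 0.123). In shGFP Mvd had 54.7, 50.9 and 55.2 RPKM, in shNCOR 51.4, 51.3 and 53.9 and in shSMRT 47.2, 49.6 and 51.0. The shSMRT and shGFP libraries of Mvd overlapped. Limma gave Mvd a log2 fold change of -0.12 ± 0.04 (SE) in shSMRT (called lower, adjusted p = 0.0254) and of -0.036 ± 0.04 in shNCOR (not called, adjusted p = 0.512). The fall of Mvd in shSMRT was lost under quantile normalization (adjusted p = 0.363) and when a trend with exon length was removed (adjusted p = 0.132). It was also lost without shGFP replicate 1, shGFP replicate 3 or shSMRT replicate 1 (adjusted p = 0.0829, 0.0963 and 0.104).

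Ggps1 was not called in any comparison as analysed here, although some alternatives called it lower. For Ggps1 the libraries gave 4.17, 4.55 and 4.11 RPKM in shGFP, 3.27, 4.11 and 3.57 in shNCOR and 3.66, 3.87 and 3.90 in the shSMRT libraries. The shSMRT libraries were all below the shGFP libraries, and 1 shNCOR library reached into the shGFP range. Against shGFP, Ggps1 differed by -0.13 ± 0.072 (log2, SE) in shSMRT, limma adjusted p = 0.138, not called, and by -0.19 ± 0.072 in shNCOR, adjusted p = 0.0648, not called. The 95% confidence interval in shSMRT ran from -0.29 to 0.03. Ggps1 was called lower in shNCOR in 6 of 18 alternatives, with an adjusted p of 0.0164 without shNCOR replicate 2, and in shSMRT in 2 of 18.

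**Figure D2:**
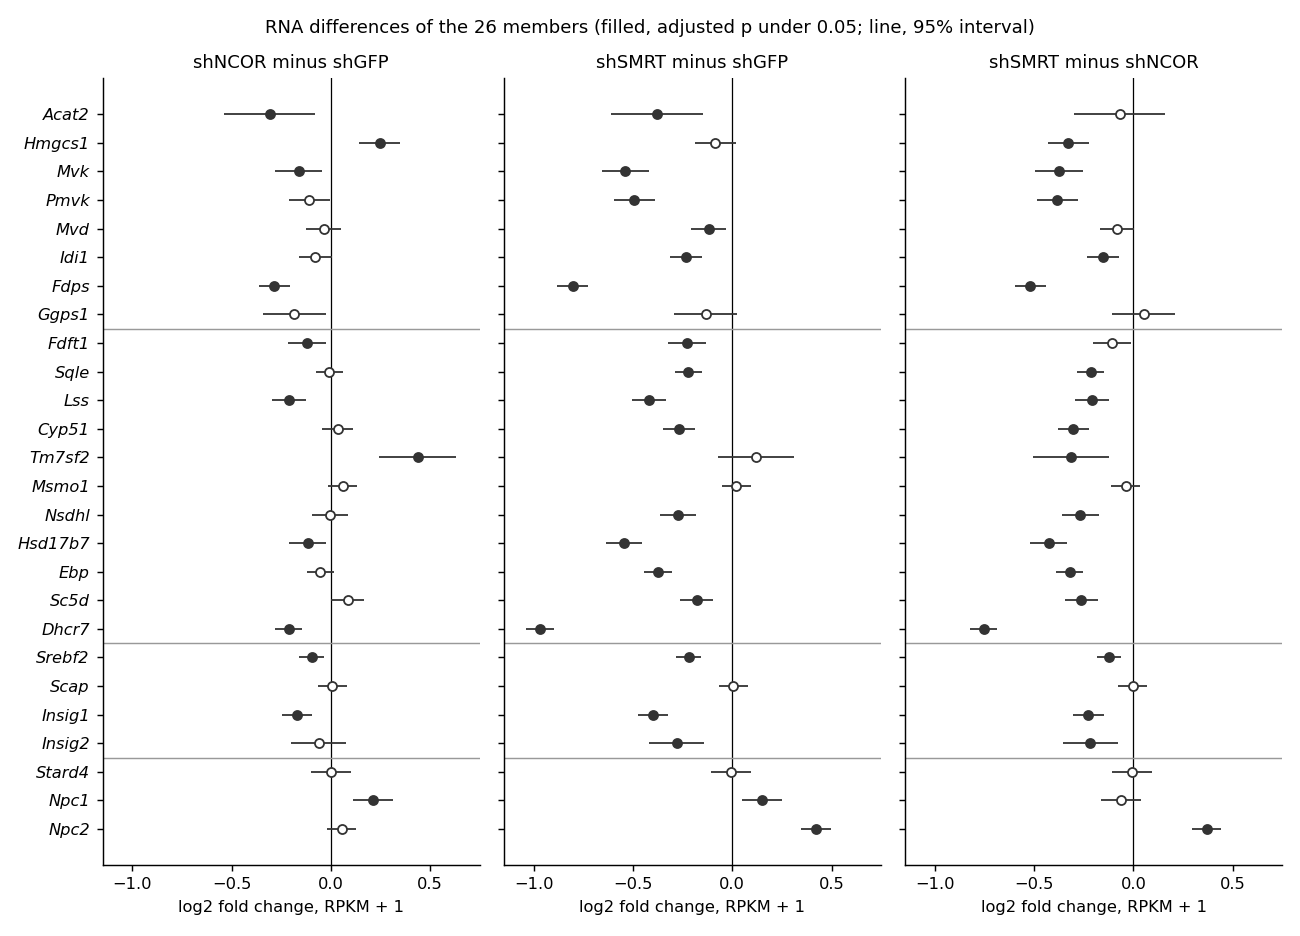
Log2 fold change on the log2(RPKM + 1) scale of each of the 26 members in shNCOR and in shSMRT against shGFP, from limma, with bars for the 95% confidence interval and filled points for calls at an adjusted p under 0.05. In shSMRT the bars of 18 members lie below 0 and are called, with Dhcr7 lowest, and Npc2 lies highest.

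In the sterol arm, 9 of 11 enzymes fell in shSMRT, whereas in shNCOR 4 fell and 1 rose. The shares of all tested genes were 31.4% lower in shSMRT, and 20.0% lower and 17.6% higher in shNCOR. Dhcr7 encodes the reductase that makes cholesterol in the last step of the Kandutsch-Russell branch. Dhcr7 stood at 34.2, 35.4 and 34.7 RPKM in shGFP, at 30.0, 29.6 and 30.0 RPKM in shNCOR and at 16.7, 17.6 and 17.6 RPKM in shSMRT. The 3 groups did not overlap at all. Dhcr7 was called lower in shSMRT, at a log2 fold change of -0.97 ± 0.031 (SE, limma adjusted p = 1.67e-09), and called lower in shNCOR, at -0.21 ± 0.031 (adjusted p = 0.000269). It was also lower in shSMRT than in shNCOR, by a log2 fold change of -0.75 (limma adjusted p = 1.01e-08). Dhcr7 lies at chr7:143823167-143848410 (mm10, plus strand).

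Hsd17b7, the ketone reductase of sterol demethylation, fell to 66.2% of its shGFP mean in shSMRT. The RPKM of Hsd17b7 was 12.7, 13.5 and 13.0 in shGFP, 11.6, 12.2 and 12.2 in shNCOR and 8.51, 8.46 and 9.00 in the shSMRT libraries. Limma gave Hsd17b7 a log2 fold change of -0.54 ± 0.042 (SE) in shSMRT (called lower, adjusted p = 1.29e-06) and of -0.12 ± 0.042 in shNCOR (called lower, adjusted p = 0.048). Its groups did not overlap, but the call in shNCOR held in 8 of 18 alternatives only.

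Lss closes the rings of lanosterol. In shGFP Lss had 22.7, 22.9 and 21.5 RPKM, in shNCOR 19.0, 19.4 and 19.2 and in shSMRT 16.0, 17.3 and 16.1. Its 3 groups were separated, with shSMRT lowest. Against shGFP, Lss differed by -0.42 ± 0.039 (log2, SE) in shSMRT, limma adjusted p = 5.68e-06, called lower, and by -0.21 ± 0.039 in shNCOR, adjusted p = 0.00153, called lower. A transcript on the opposite strand, 4930483K19Rik, overlaps Lss over 11269 bp, and reads were counted on both strands, so the 2 cannot be told apart where they overlap. That transcript stood at 5.87 to 6.53 RPKM in shGFP, 5.25 to 5.57 in shNCOR and 3.98 to 4.80 in shSMRT.

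Ebp moves a double bond of the sterol ring, and Nsdhl is the decarboxylating dehydrogenase before Hsd17b7. For Ebp the libraries gave 28.5, 29.0 and 28.2 RPKM in shGFP, 27.9, 27.9 and 26.7 in shNCOR and 21.6, 22.2 and 21.6 in the shSMRT libraries. Ebp was called lower in shSMRT, at a log2 fold change of -0.37 ± 0.031 (SE, limma adjusted p = 2.29e-06), and not called in shNCOR, at -0.054 ± 0.031 (adjusted p = 0.204). Nsdhl stood at 28.1, 28.6 and 26.5 RPKM in shGFP, at 27.8, 28.1 and 27.0 RPKM in shNCOR and at 21.6, 23.3 and 23.5 RPKM in shSMRT. Limma gave Nsdhl a log2 fold change of -0.27 ± 0.041 (SE) in shSMRT (called lower, adjusted p = 0.00021) and of -0.0048 ± 0.041 in shNCOR (not called, adjusted p = 0.939). In both genes the 3 shSMRT libraries lay below the other 6, and neither was called in shNCOR.

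Cyp51 is the demethylase of lanosterol, and Sqle, the squalene epoxidase, is a control point of the arm. The RPKM of Cyp51 was 42.5, 42.4 and 43.0 in shGFP, 46.4, 42.8 and 42.0 in shNCOR and 35.4, 35.3 and 35.0 in the shSMRT libraries. Against shGFP, Cyp51 differed by -0.27 ± 0.036 (log2, SE) in shSMRT, limma adjusted p = 7.93e-05, called lower, and by 0.034 ± 0.036 in shNCOR, adjusted p = 0.493, not called. In shGFP Sqle had 72.0, 74.1 and 72.1 RPKM, in shNCOR 71.3, 74.7 and 71.0 and in shSMRT 63.7, 62.6 and 60.3. Sqle was called lower in shSMRT, at a log2 fold change of -0.22 ± 0.031 (SE, limma adjusted p = 0.000108), and not called in shNCOR, at -0.0072 ± 0.031 (adjusted p = 0.876). Each was lower in all shSMRT libraries than in any other library and was not called in shNCOR.

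Sc5d adds a late double bond to the sterol ring. For Sc5d the libraries gave 25.2, 24.0 and 24.2 RPKM in shGFP, 26.3, 26.1 and 25.7 in shNCOR and 20.9, 22.7 and 21.0 in the shSMRT libraries. The shSMRT libraries lay below and the shNCOR libraries above those of shGFP. Limma gave Sc5d a log2 fold change of -0.18 ± 0.037 (SE) in shSMRT (called lower, adjusted p = 0.00188) and of 0.084 ± 0.037 in shNCOR (not called, adjusted p = 0.102). The difference between the knockdowns was -0.26 on the log2 scale (limma adjusted p = 0.000143).

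Fdft1, squalene synthase, opens the arm. Fdft1 stood at 23.9, 25.9 and 24.3 RPKM in shGFP, at 23.2, 22.1 and 22.6 RPKM in shNCOR and at 21.7, 21.3 and 19.8 RPKM in shSMRT. Against shGFP, Fdft1 differed by -0.23 ± 0.043 (log2, SE) in shSMRT, limma adjusted p = 0.000974, called lower, and by -0.12 ± 0.043 in shNCOR, adjusted p = 0.0482, called lower. All libraries of both knockdowns were below those of shGFP, and the call in shNCOR held in 9 of 18 alternatives. Fdft1 overlaps Ctsb on the opposite strand over 773 bp, and Ctsb stood at 536 to 543 RPKM in shGFP, 559.97 to 593 in shNCOR and 636 to 644 in shSMRT.

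Tm7sf2 and Msmo1 did not fall. Tm7sf2, a sterol ring reductase, had the highest fold change of the members in shNCOR. The RPKM of Tm7sf2 was 5.68, 5.03 and 5.49 in shGFP, 7.96, 8.52 and 6.60 in shNCOR and 6.43, 5.35 and 6.12 in the shSMRT libraries. All 3 shNCOR libraries were above the others. Tm7sf2 was not called in shSMRT, at a log2 fold change of 0.12 ± 0.087 (SE, limma adjusted p = 0.263), and called higher in shNCOR, at 0.44 ± 0.087 (adjusted p = 0.00241). Tm7sf2 overlaps Vps51 on the same strand over 9 bp. Vps51 stood at 20.3 to 23.0 RPKM in shGFP, 18.5 to 20.9 in shNCOR and 18.8 to 20.7 in shSMRT. Msmo1, the oxidase that starts the demethylation completed by Nsdhl and Hsd17b7, was not called in any comparison. In shGFP Msmo1 had 85.7, 86.9 and 85.4 RPKM, in shNCOR 94.0, 88.8 and 86.4 and in shSMRT 88.3, 88.7 and 84.9. The groups overlapped, and its 95% confidence interval in shSMRT was narrow, from -0.05 to 0.09. Under quantile normalization alone of 18 alternatives, Msmo1 was called higher in both knockdowns (adjusted p = 0.0182 in shNCOR and 0.00883 in shSMRT).

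Of the 4 genes of SREBP control, 3 fell in shSMRT and 2 in shNCOR, where 31.4% and 20.0% of the tested genes fell. For Srebf2 the libraries gave 79.2, 81.4 and 80.6 RPKM in shGFP, 76.6, 75.0 and 73.9 in shNCOR and 68.1, 71.1 and 67.5 in the shSMRT libraries. The 3 groups were separated, with shGFP highest and shSMRT lowest. Limma gave Srebf2 a log2 fold change of -0.22 ± 0.028 (SE) in shSMRT (called lower, adjusted p = 6.24e-05) and of -0.097 ± 0.028 in shNCOR (called lower, adjusted p = 0.0201). The call in shNCOR held in 13 of 18 alternatives. Srebf2 lies at chr15:82147269-82204960 (mm10, plus strand).

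Insig1 is a target of SREBP2 whose product holds it back. Insig1 stood at 46.7, 45.0 and 43.8 RPKM in shGFP, at 41.1, 40.3 and 38.7 RPKM in shNCOR and at 33.5, 33.5 and 35.1 RPKM in shSMRT. Its 3 groups did not overlap, and the values fell in the same order as those of Srebf2. Against shGFP, Insig1 differed by -0.40 ± 0.035 (log2, SE) in shSMRT, limma adjusted p = 3.52e-06, called lower, and by -0.17 ± 0.035 in shNCOR, adjusted p = 0.00281, called lower. Insig2, the related anchor protein, fell in shSMRT and was not called in shNCOR. The RPKM of Insig2 was 7.60, 7.64 and 7.22 in shGFP, 6.83, 7.12 and 7.45 in shNCOR and 5.59, 5.75 and 6.68 in the shSMRT libraries. Insig2 was called lower in shSMRT, at a log2 fold change of -0.28 ± 0.063 (SE, limma adjusted p = 0.00291), and not called in shNCOR, at -0.062 ± 0.063 (adjusted p = 0.47). The difference of Insig2 between the knockdowns was -0.22 (limma adjusted p = 0.0133). Scap, the escort of SREBP2, was not called, with 25.2, 25.3 and 25.3 RPKM as the means of shGFP, shNCOR and shSMRT. Its 95% confidence interval in shSMRT against shGFP ran from -0.07 to 0.08.

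None of the 3 sterol transport genes fell, where 31.4% of the tested genes fell in shSMRT and 20.0% in shNCOR. In shGFP Npc2 had 73.6, 71.2 and 69.7 RPKM, in shNCOR 77.1, 70.8 and 74.9 and in shSMRT 96.3, 95.2 and 96.6. NPC2 binds cholesterol in the lysosome and hands it to NPC1. The shSMRT libraries lay above all others, and those of shNCOR and shGFP overlapped. Limma gave Npc2 a log2 fold change of 0.42 ± 0.034 (SE) in shSMRT (called higher, adjusted p = 1.8e-06) and of 0.054 ± 0.034 in shNCOR (not called, adjusted p = 0.243). Npc2 lies at chr12:84754559-84773112 (mm10, minus strand).

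Npc1, the membrane protein that exports cholesterol from the lysosome, rose in both knockdowns. For Npc1 the libraries gave 14.8, 14.6 and 14.6 RPKM in shGFP, 16.6, 18.4 and 16.4 in shNCOR and 16.0, 17.0 and 16.1 in the shSMRT libraries. Every knockdown library was above every shGFP library. Against shGFP, Npc1 differed by 0.15 ± 0.046 (log2, SE) in shSMRT, limma adjusted p = 0.017, called higher, and by 0.21 ± 0.046 in shNCOR, adjusted p = 0.004, called higher. The call in shSMRT was lost without shSMRT replicate 2 (adjusted p = 0.0699) and when a trend with exon length was removed (adjusted p = 0.077). Npc1 overlaps Rmc1 on the opposite strand over 276 bp. Rmc1 stood at 13.3 to 14.5 RPKM in shGFP, 13.9 to 14.3 in shNCOR and 11.1 to 12.9 in shSMRT. Stard4, a cytosolic carrier of cholesterol, was not called, at means of 17.8, 17.8 and 17.7 RPKM in shGFP, shNCOR and shSMRT. The 95% confidence interval of Stard4 in shSMRT against shGFP ran from -0.11 to 0.09.

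Other genes of the pathway and around it were read from lists, whose counts stand beside 20.0% lower and 17.6% higher among all tested genes in shNCOR and 31.4% and 24.4% in shSMRT. Of 13 other enzymes and targets of SREBP2, 6 fell and 1 rose in shNCOR, and 8 fell and 3 rose in shSMRT, with medians of -0.062 and -0.13. Acss2, which makes acetyl-CoA from acetate, averaged 8.19 RPKM in shGFP, 5.92 in shNCOR and 4.43 in shSMRT. Against shGFP it fell by 0.41 and 0.76 on the log2 scale (limma adjusted p = 0.000135 and 6.9e-07). Cyb5a, an electron donor to sterol desaturases, rose in both knockdowns, by 0.28 and 0.32, and Por, which passes electrons to CYP51 and squalene epoxidase, rose by 0.23 in shSMRT.

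Among 13 genes that use isoprenoids, 3 fell and 1 rose in shNCOR, and 10 fell and 0 rose in shSMRT, with medians of -0.011 and -0.21. In shNCOR Rabggtb, a subunit of the Rab prenyl transferase, rose by 0.24, while Rce1 and Fntb, a subunit of farnesyl transferase, fell by 0.22 and 0.20. In shSMRT the largest falls were in Pdss2 (-0.28), which builds the tail of coenzyme Q, and Rce1 (-0.26), a protease of prenylated proteins. Of 17 genes of SREBP processing and sterol-regulated degradation, 3 fell and 4 rose in shNCOR, and 5 fell and 6 rose in shSMRT, with medians of 0.012 and -0.056. These counts are near the shares of all tested genes. Erlin2, which takes part in sterol-regulated degradation in the endoplasmic reticulum, rose by 0.23 and 0.30 in the 2 knockdowns. In shNCOR the ubiquitin ligase gene Rnf139 rose by 0.16, and the vesicle coat gene Sar1b and the ligase gene Rnf145 fell by 0.14 and 0.12. In shSMRT the coat gene Sec24b rose by 0.25, and Vcp, which pulls proteins out of the membrane for degradation, and Sec24c fell by 0.27 and 0.21. Srebf1, the paralog of Srebf2 that drives fatty acid synthesis, averaged 49.8, 47.3 and 43.6 RPKM in shGFP, shNCOR and shSMRT. It was not called in shNCOR (-0.073, limma adjusted p = 0.0783) and fell in shSMRT (-0.19, limma adjusted p = 0.000309).

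Of 9 tested genes of sterol storage, hydrolysis and transfer, 4 rose and 2 fell in shNCOR, and 4 rose and 1 fell in shSMRT, with medians of 0.067 and 0.11. Nceh1, a cholesteryl ester hydrolase, averaged 23.3 RPKM in shGFP, 34.9 in shNCOR and 17.1 in shSMRT, and shSMRT differed from shNCOR by -0.99 on the log2 scale (limma adjusted p = 9.81e-10). Lipa, the acid lipase of the lysosome, averaged 174.9, 235 and 171 RPKM, and differed between the knockdowns by -0.46 (limma adjusted p = 3.94e-07). In shNCOR the sterol transfer genes Gramd1b and Stard3 fell by 0.35 and 0.12, and in shSMRT Osbpl8, an oxysterol-binding protein gene, and Soat1, which esterifies cholesterol, rose by 0.20 and 0.16. Of 7 LXR and efflux genes, 3 rose and 1 fell in shNCOR, and 4 rose and 2 fell in shSMRT, with medians of 0.015 and 0.14. Abca1, a cholesterol efflux pump, averaged 0.374 RPKM in shGFP and rose by 1.24 in shNCOR and 0.94 in shSMRT on the log2(RPKM + 1) scale. Abcg1, another efflux pump, rose by 0.52 in shNCOR and fell by 0.29 in shSMRT, and Lpcat3, a phospholipid acyltransferase, fell by 0.44 in shSMRT. Mylip, a ligase that removes lipoprotein receptors, fell by 0.25 in shNCOR and rose by 0.26 in shSMRT, and the difference was 0.50 (limma adjusted p = 6.91e-06).

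Most proliferation markers fell in both knockdowns. Of 19 such genes, 13 fell and 0 rose in shNCOR (median -0.19), and 18 fell and 0 rose in shSMRT (median -0.33). Beside these counts and those of the macrophage markers below, 20.0% of all tested genes fell and 17.6% rose in shNCOR. In shSMRT 31.4% of all tested genes fell and 24.4% rose. The largest falls were in Ccnb1 and Ccnb2 (-0.30 and -0.29) in shNCOR and in Birc5 and Tyms (-0.70 and -0.55) in shSMRT. The summed level of the 19 was 1846 to 1868 RPKM in shGFP, 1639.6 to 1691 in shNCOR and 1489 to 1507 in shSMRT. The macrophage marker sum given above was higher in both knockdowns. Of its 11 tested genes, 3 rose and 4 fell in shNCOR (median -0.0014), and 10 rose and 1 fell in shSMRT (median 0.51). The part of either in the results on the members was not tested.

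Accessibility at the members was examined in peaks, in reads scaled to 10 M per library. A promoter peak is the listed peak nearest to a start site, with its centre within 1 kb, and 21 members had one. Reads per member peak and library ran from 0 to 716 with a median of 84. The share of reads in listed peaks differed between groups, at 50.6 to 54.0% in shGFP, 54.7 to 55.7% in shNCOR and 47.6 to 49.9% in shSMRT, and its part in the differences below was not tested apart from the rescaled values given with them.

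With SMRT knocked down, 14 of 62 member peaks fell and 2 rose, where 10.9% of all tested peaks fell and 6.81% rose. Of the 21 promoter peaks 9 fell and 0 rose, beside 21.8% and 1.62% of all peaks within 1 kb of a start site. Their median log2 fold change was -0.24, and that of all such peaks was -0.20. The promoter median was -0.14 with the share of reads in peaks set equal and -0.068 under quantile normalization. The promoter peaks that fell were those of Pmvk, Lss, Sqle, Insig2, Cyp51, Msmo1, Stard4, Srebf2 and Insig1. When the share of reads in peaks was set equal, an alternative chosen after seeing the data, 7 member peaks fell and 4 rose, and 5 promoter peaks fell. That scaling moved the median of all peaks from -0.092 to 0.001, and the calls over all peaks from 5595 lower and 3506 higher to 2800 lower and 4543 higher. Under quantile normalization 7 member peaks fell and 3 rose, and 3 promoter peaks fell, where 3358 of the 51469 tested peaks fell and 4390 rose. Without shGFP replicate 1, 4 member peaks and 3 promoter peaks fell, and without shSMRT replicate 1, 8 and 5 did. Of all tested peaks 2710 fell and 2409 rose without shGFP replicate 1, and 3774 and 2479 without shSMRT replicate 1. The 2 rises were not called without shGFP replicate 2, and 1 was called when any 1 of the shSMRT replicates was left out.

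The promoter peaks of Pmvk, Lss and Sqle were called lower under 18 of 18 alternatives. The promoter peak of Pmvk, at chr3:89458795-89459433, held 85.0, 105 and 109.7 scaled reads in shGFP, 91.1, 92.4 and 113 in shNCOR and 62.0, 54.5 and 59.4 in the shSMRT libraries. For Lss, the promoter peak at chr10:76531296-76531819 held 351, 292 and 339 scaled reads in shGFP, 348, 337 and 362 in shNCOR and 238, 249.6 and 243 in the shSMRT libraries. The promoter peak of Sqle, at chr15:59314612-59315358, held 504, 476 and 487 scaled reads in shGFP, 521, 543 and 483 in shNCOR and 338, 395 and 410.3 in the shSMRT libraries. In each, the 3 shSMRT libraries lay below the other 6. At Pmvk the shSMRT log2 fold change was -0.72 ± 0.16 (SE, limma adjusted p = 0.00134) against shGFP and -0.70 (adjusted p = 0.00124) against shNCOR. In shSMRT the Lss peak differed by -0.42 ± 0.093 on the log2 scale from shGFP (SE, limma adjusted p = 0.00102) and by -0.51 from shNCOR (adjusted p = 6.66e-05). At Sqle the shSMRT log2 fold change was -0.36 ± 0.084 (SE, limma adjusted p = 0.00179) against shGFP and -0.44 (adjusted p = 0.000163) against shNCOR. The peak of Lss covers the window printed above.

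Msmo1 had a lower promoter peak in shSMRT although its transcript was not called. For Msmo1, the promoter peak at chr8:64733490-64733927 held 414, 352 and 385 scaled reads in shGFP, 408, 439 and 443 in shNCOR and 295, 304 and 318 in the shSMRT libraries. The shSMRT libraries were lowest and did not overlap the others. In shSMRT the Msmo1 peak differed by -0.32 ± 0.087 on the log2 scale from shGFP (SE, limma adjusted p = 0.00733) and by -0.48 from shNCOR (adjusted p = 5.87e-05). The same combination was seen in Stard4, whose promoter peak fell by 0.30 (limma adjusted p = 0.0139) while its RNA was not called. For Fdps, only the calls ran the other way: its RNA fell and its promoter peak was not called in shSMRT against shGFP. All shSMRT values of that peak were still below the shGFP values, and limma voom on recovered reads called it lower (adjusted p = 0.0336). The promoter peak of Fdps, at chr3:89101850-89102415, held 426, 409 and 421 scaled reads in shGFP, 429, 493 and 473 in shNCOR and 323, 385 and 378 in the shSMRT libraries. At Fdps the shSMRT log2 fold change was -0.21 ± 0.086 (SE, limma adjusted p = 0.0788) against shGFP and -0.36 (adjusted p = 0.0017) against shNCOR. Neither difference between RNA and accessibility was tested as such, and the call at Msmo1 ended under 2 of 18 alternatives and that at Stard4 under 4.

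Of the 4 SREBP control genes, Insig2, Srebf2 and Insig1 had promoter peaks that fell in shSMRT, and that of Scap was not called (-0.32, limma adjusted p = 0.0887). Among all peaks within 1 kb of a start site 21.8% fell. For Insig2, the promoter peak at chr1:121327593-121328402 held 439, 362 and 394 scaled reads in shGFP, 421, 394 and 378 in shNCOR and 298, 319 and 316 in the shSMRT libraries. This peak is not at the start of the Insig2 transcript counted in the RNA, which lies at chr1:121332589 on the minus strand. No listed peak lies over the 250 bases before that start, so the peak was placed by another annotated start site. The promoter peak of Srebf2, at chr15:82146765-82147444, held 545, 439.7 and 451 scaled reads in shGFP, 499, 571 and 502 in shNCOR and 399, 407 and 393 in the shSMRT libraries. For Insig1, the promoter peak at chr5:28070857-28072149 held 703, 637 and 660.2 scaled reads in shGFP, 740.4, 772 and 691 in shNCOR and 520.2, 603 and 589 in the shSMRT libraries. In all 3 the shSMRT libraries lay below the shGFP libraries. In shSMRT the Insig2 peak differed by -0.35 ± 0.089 on the log2 scale from shGFP (SE, limma adjusted p = 0.00384) and by -0.35 from shNCOR (adjusted p = 0.00271). At Srebf2 the shSMRT log2 fold change was -0.25 ± 0.086 (SE, limma adjusted p = 0.0351) against shGFP and -0.38 (adjusted p = 0.000828) against shNCOR. In shSMRT the Insig1 peak differed by -0.22 ± 0.078 on the log2 scale from shGFP (SE, limma adjusted p = 0.0375) and by -0.36 from shNCOR (adjusted p = 0.000549). Against shGFP, the call at Insig2 held in 16 of 18 alternatives and was lost without shGFP replicate 1, and those at Srebf2 and Insig1 held in 9 of 18 each, with adjusted p-values of up to 0.507 and 0.33. Against shNCOR the calls held in 16, 17 and 17 of 18 for Insig2, Srebf2 and Insig1.

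**Figure D3:**
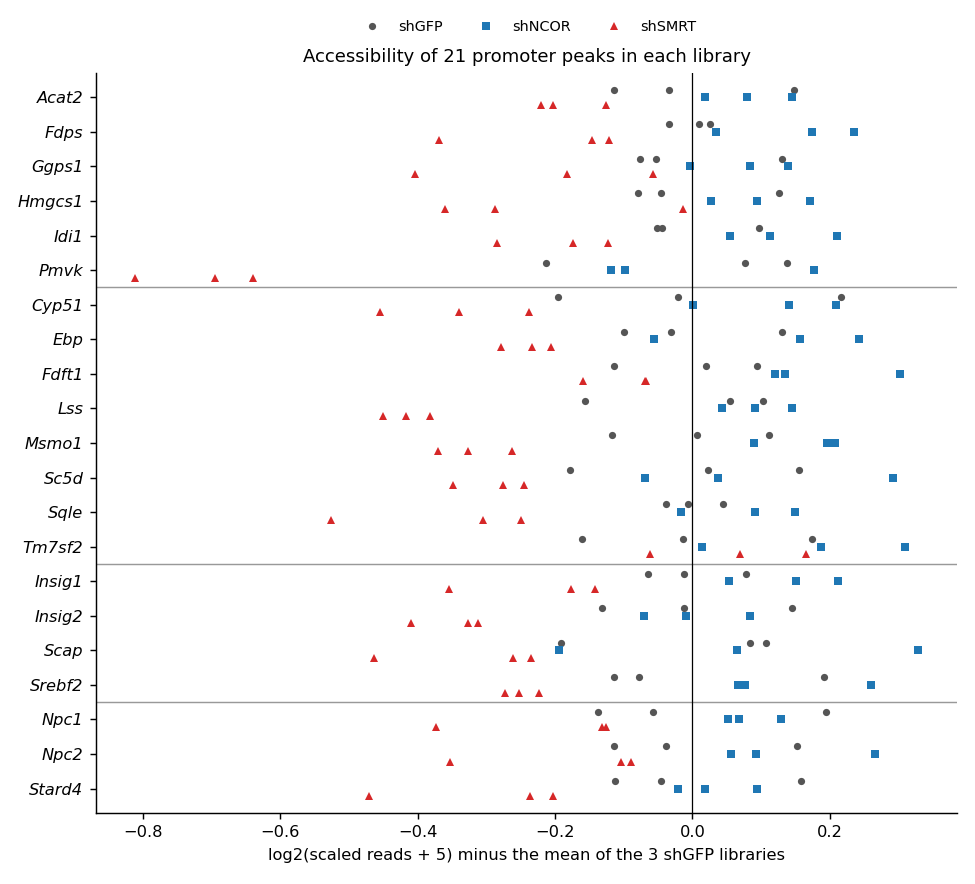
Accessibility of the 21 promoter peaks in each ATAC-seq library as log2(scaled reads + 5) minus the mean of the 3 shGFP libraries, with 1 point per library and the members grouped by role. The shSMRT points of Pmvk lie farthest to the left, and those of Tm7sf2 lie among the shGFP points.

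Away from the promoters, 5 of 41 tested member peaks fell and 2 rose in shSMRT, beside 7.97% and 7.23% of all peaks beyond 1 kb and within 50 kb of a start site. An intergenic peak 7241 bp upstream of Insig1, at chr5:28064020-28064323, held 42.5, 41.3 and 33.2 scaled reads in shGFP, 18.5, 8.25 and 27.9 in shNCOR, and 7.51, 17.0 and 18.4 in shSMRT. Both knockdowns were below shGFP in every library. It fell by 1.23 on the log2 scale in shSMRT (limma adjusted p = 0.00905), and its value of -1.01 in shNCOR was not called (limma adjusted p = 0.0551). A peak in intron 1 of Dhcr7, at chr7:143829546-143830272, held 290.7, 282 and 281 scaled reads in shGFP, 313, 276 and 249 in shNCOR, and 204, 240.5 and 189.6 in shSMRT. It fell in shSMRT by 0.43 on the log2 scale (limma adjusted p = 0.00212). A weak intergenic peak 43563 bp upstream of Sc5d, at chr9:42307759-42307968, held 6.71, 2.81 and 7.38 scaled reads in shGFP, 5.28, 9.90 and 7.61 in shNCOR, and 23.5, 18.2 and 29.7 in shSMRT. It rose in shSMRT with a log2 fold change of 1.45 (limma adjusted p = 0.0105), while the Sc5d transcript was lower. The other peaks that fell lay 17388 bp downstream of the Sc5d start (-0.72), 22887 bp downstream of that of Pmvk (-0.67) and 28100 bp upstream of that of Insig2 (-0.43). The other peak that rose lay in intron 1 of Scap (0.54, limma adjusted p = 0.0355).

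**Figure D4:**
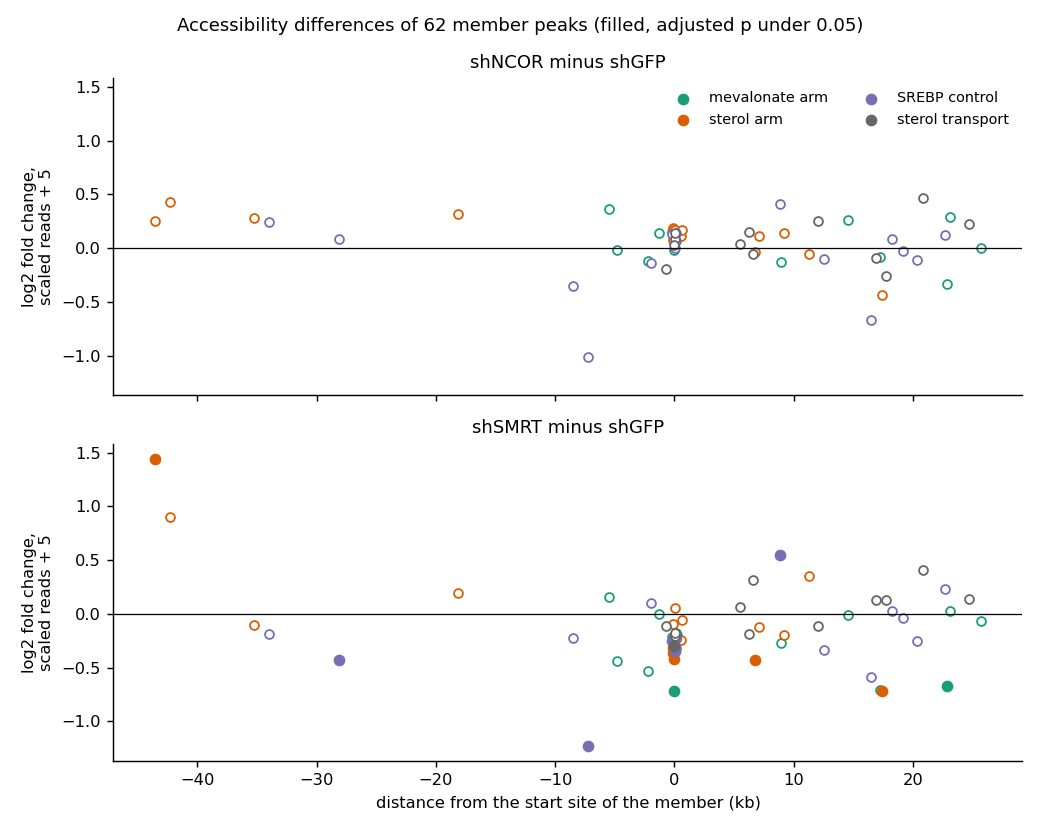
Log2 fold change of the tested member peaks against their distance from the member's start site, in shNCOR and in shSMRT against shGFP, with filled points for calls at an adjusted p under 0.05. In shSMRT most peaks near the start site lie below 0, the lowest value is the peak upstream of Insig1 at -1.23 and the highest the peak upstream of Sc5d at 1.45.

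With NCOR knocked down, no member peak was called. Limma called 0 of 62 peaks higher and 0 lower, where 4.58% of all tested peaks rose and 4.00% fell. At an unadjusted p under 0.05 the counts were 4 higher and 2 lower, and limma voom on the recovered reads called 1 higher and 0 lower. Of the 21 promoter peaks, 20 had a log2 fold change above 0, with a median of 0.097, beside 0.081 for all peaks within 1 kb of a start site. Of all those peaks 3.06% rose and 1.49% fell. The median of the promoter peaks was 0.0042 under quantile normalization, 0.025 with the share of reads in peaks set equal, 0.16 without shGFP replicate 1 and 0.064 without shGFP replicate 2. The promoter peak of Hmgcs1, the enzyme whose RNA rose, was not called. The promoter peak of Hmgcs1, at chr13:119690003-119690624, held 644, 571 and 558 scaled reads in shGFP, 629.6, 601 and 665 in shNCOR and 458, 482 and 584 in the shSMRT libraries. The shNCOR and shGFP values overlapped, and the log2 fold change was 0.097 (limma adjusted p = 0.535). Tm7sf2, the other enzyme with a raised transcript, had a promoter peak that held 112.9, 126 and 144 scaled reads in shGFP, 145, 158 and 128 in shNCOR, and 133, 121 and 143 in shSMRT. These values also overlapped, with a log2 fold change of 0.17 in shNCOR (limma adjusted p = 0.467).

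Set against shNCOR, shSMRT had 27 of 62 member peaks lower and 1 higher, where 17.5% of all tested peaks were lower and 6.93% higher. Of the promoter peaks 20 of 21 were lower, beside 41.7% of all peaks within 1 kb of a start site, and the exception was Tm7sf2. None was higher, beside 1.62% of all such peaks. Their median was -0.35, against -0.28 for all such peaks. Away from the promoters 7 of 41 peaks were lower and 1 was higher, beside 11.1% and 6.83% of all peaks at such distances. The called lower peaks with the largest differences were at Insig2 (-0.52), 28100 bp upstream, and at Insig1 (-0.43), 34007 bp upstream, and the peaks of Dhcr7 at 6742 and 9161 bp (-0.39 and -0.34) and of Npc1 at 11998 bp (-0.37) downstream. These values depend on the scaling. Under quantile normalization 3 member peaks, all of them promoter peaks, were lower, and the promoter median was -0.064. Of all tested peaks 2401 were then lower and 3550 higher. With the share of reads in peaks set equal, 7 were lower, all promoter peaks, and the promoter median was -0.19. That scaling turned the calls over all peaks from 8999 lower and 3565 higher to 2582 lower and 5117 higher. The 1 higher peak, upstream of Sc5d, was not called without shSMRT replicate 1 or 3.

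For 5 members, Mvk, Mvd, Nsdhl, Hsd17b7 and Dhcr7, the peak over the start site is named for a neighbour that starts close by. At the Dhcr7 start, the peak named for Nadsyn1 held 361, 307 and 324 scaled reads in shGFP, 369.5, 371 and 365 in shNCOR, and 247, 287 and 276 in shSMRT. The shSMRT libraries were lowest, and the log2 fold change against shGFP was -0.29 (limma adjusted p = 0.0231). At the Nsdhl start, the peak named for Cetn2 fell by 0.47 in shSMRT (limma adjusted p = 0.00243). The peaks over Mvk, Mvd and Hsd17b7 were not called in shSMRT against shGFP, with log2 fold changes of -0.16, -0.13 and -0.15. None of the 5 was called in shNCOR, by limma. Such a peak serves both genes, and its reads cannot be assigned to either.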

How the data were processed

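The deposited RNA values are RPKM: per the file headers, exonic reads of mm10 RefSeq genes were counted with HOMER, both strands together and 1 transcript for each gene, so overlapping genes share reads. The deposited ATAC values give, for each merged peak, the read number scaled to a library of 10 M (M, mega). Per the file headers HOMER also annotated these peaks on mm10, and no transposase shift is stated. The submitters' processing notes list the tools Bowtie2, HISAT2, HOMER, MACS2 and DESeq2 with builds mm9 and mm10, and which of them called the ATAC peaks was not given in the sources used here. Decimal commas were read as points, and 1 of 51984 peaks was dropped because a value was not a number. The authors' values came out as whole multiples of 1 read, within 0.1 read, in 100% of those checked, and this gave the depths.

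Each assay was fitted once with limma 3.58.1 in R 4.3.3, using its 9 libraries and a trend of variance with the mean. The RNA fit took log2(RPKM + 1) of genes reaching 1 RPKM in 3 or more libraries. The ATAC fit took log2(value + 5) of the 51469 peaks reaching 10 in 3 or more libraries. Low genes and peaks therefore show smaller fold changes than they had. A call is a Benjamini-Hochberg adjusted p under 0.05 over all features of the contrast, and the 95% confidence intervals are those of the fit. The scripts were tested on simulated data. Replicates differed by more than sampling noise (chi-square per degree of freedom 1.65 to 10.4) and were all kept. Titles in the labels gave groups and replicate numbers. The other 54 samples were not used here.

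The members, the other gene lists, the tests and the alternatives were chosen with earlier results of these data known. All 26 members are described. From each other list the rule names up to 2 called genes with the largest and 2 with the smallest log2 fold change per knockdown, and Srebf1. Of the peaks away from promoters it names up to 5 in each direction per contrast. The alternatives were other pseudocounts, no filter, quantile normalization, equal library medians, a replicate block, 6 libraries at a time, a removed trend with exon length, a test against a fold of 1.2, windows of 10 and 1 kb, and leaving out each library. Limma voom on recovered reads, leaving out members that overlap another gene, and scaling ATAC to reads in peaks were added later, with the data in view. The SMRT transcript and some other genes of the pathway are not reported here. Plots were made with matplotlib 3.10.9.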

Additional observations from a re-analysis of the deposited data

How the results depend on the processing

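Of the 18 members called lower in the RNA of shSMRT against shGFP, 17 were kept in all 18 alternatives other than the test against a fold of 1.2, as were 1 of 2 calls higher. Against shNCOR 15 of 17 calls lower and 1 of 1 higher were kept. In shNCOR 4 of 9 calls lower and 3 of 3 higher were kept. In ATAC, 3 of 9 promoter calls lower in shSMRT were kept, and 3 of 20 against shNCOR. A test against a fold of 1.2 called 8 members lower and 1 higher in shSMRT, 0 and 0 in shNCOR, and 3 and 0 in shSMRT against shNCOR. Over all 10789 genes it called 534 lower and 722 higher in shSMRT, 432 and 270 in shNCOR, and 353 and 766 between them.

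For RNA in shNCOR, 5 members fell with no filter on low values and 5 rose under quantile normalization. With no filter 2193 of 16119 genes fell and 1801 rose, and under quantile normalization 2025 of 10789 fell and 2107 rose. Without members that overlap another gene, 1 rose in shNCOR and 1 in shSMRT, because fewer genes were counted, and 1 rose in shSMRT with the exon length trend removed. For ATAC in shNCOR, 1 member peak fell with a pseudocount of 20, with equal library medians, in the fit on 6 libraries and with scaling to reads in peaks, and 1 rose with limma voom. For ATAC in shSMRT, 7 peaks fell under quantile normalization, 7 with scaling to reads in peaks and 9 within 1 kb. The peaks that rose there were 4 with limma voom, 4 with scaling to reads in peaks, 1 within 10 kb and 0 within 1 kb. Against shNCOR, 3 peaks were lower under quantile normalization and 7 with scaling to reads in peaks, and the higher ones were 0 with a pseudocount of 1, 0 with limma voom, 2 with scaling to reads in peaks, 0 within 10 kb and 0 within 1 kb. Quantile normalization turned the promoter peaks of Acat2 (0.016), Ggps1 (0.013) and Fdft1 (0.0012) above 0 in shSMRT against shNCOR. The fewer peaks of the narrower windows lower those counts by construction, and the cause of the other changes was not tested.

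Leaving out 1 library at a time gave 5 to 9 members lower and 3 to 3 higher in shNCOR RNA, 17 to 18 lower and 1 to 2 higher in shSMRT RNA, and 16 to 18 lower and 1 to 1 higher between them. Over all tested genes it gave 1819 to 2128 lower and 1545 to 1822 higher in shNCOR. The gene ranges were 2990 to 3506 and 2297 to 2717 in shSMRT, and 2758 to 3137 and 2202 to 2460 between them. For ATAC, leaving out 1 library gave 0 to 1 lower and 0 to 0 higher in shNCOR, 4 to 15 lower and 0 to 3 higher in shSMRT, and 20 to 27 lower and 0 to 1 higher between them. Over all tested peaks it gave 1156 to 2131 lower and 1228 to 2457 higher in shNCOR. The peak ranges were 2710 to 6247 and 2409 to 3933 in shSMRT, and 6402 to 8720 and 2518 to 3662 between them. The lowest count of rises in shSMRT RNA was without shSMRT replicate 2, and 1 peak fell in shNCOR without shNCOR replicate 3 or shSMRT replicate 1.

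Deviations of same-numbered libraries correlated at -0.06 to 0.105 in RNA and -0.043 to 0.022 in ATAC. Between libraries of different numbers the ranges were -0.126 to 0.081 and -0.04 to 0.05. With 3 libraries per group these ranges cannot exclude that the replicate numbers pair the samples. With the replicate block, RNA counts were 10 lower and 3 higher in shNCOR, 19 and 2 in shSMRT, and 17 and 1 between them, and ATAC counts were 0 and 0, 12 and 2, and 26 and 1. Over all tested genes the block gave 2259 lower and 1996 higher in shNCOR, 3470 and 2686 in shSMRT, and 3218 and 2522 between them. Over all tested peaks it gave 2047 and 2201, 5172 and 3474, and 8554 and 3531. A median of 84 reads per member peak and library limits the ATAC more than the median of 3658 reads per member limits the RNA.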
